A study of Mus musculus with 24 samples.

Results

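The genes described are the erasers and the writer complex of N6-methyladenosine (m6A), taken by their symbols from the count tables of a mouse melanoma and T cell series. There were 9 of them among the 24421 genes of the tables: 2 erasers, Fto and Alkbh5, and 7 writer genes, Mettl3, Mettl14, Wtap, Zc3h13, Rbm15, Rbm15b and Cbll1. All 9 passed the filter on low counts in both tables, among 11718 tested genes in tumour cells and 12824 in T cells. The question was whether other parts of the m6A system differ when Fto is knocked down.

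m6A is a methyl group on adenosines inside messenger RNA. METTL3 and METTL14 form the catalytic core that writes it, in which METTL3 carries the active site. WTAP, VIRMA, ZC3H13, HAKAI (the product of Cbll1) and RBM15 or RBM15B hold that core in the nucleus and bring it to its RNA targets. FTO and ALKBH5 are dioxygenases of the AlkB family that remove the mark, and FTO also acts on the methylated cap of some RNAs.

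B16-OVA is a C57BL/6 melanoma line that carries the ovalbumin antigen. Cells with a control hairpin (shNC) or a hairpin against Fto (shFto) were kept in puromycin, and 3 shNC and 3 shFto libraries each were made for RNA-seq and for ATAC-seq, which maps open chromatin. Naive OT-I CD8 T cells, also on C57BL/6, spent 8 h beside tumour cells (shNC, or either of the lines shFto-1 and shFto-2) in medium with IL-2 and were then sorted, giving 2 RNA libraries a group. For m6A-seq there was 1 antibody library each, with its input, from shNC cells in DMSO, shFto cells in DMSO, and shNC cells given 5 µM Dac51 for 48 h. Dac51 is a compound described by its makers as an FTO inhibitor. Which shFto line, 1 or 2, gave the tumour RNA, ATAC-seq and m6A libraries is not labelled, nor whether a line is 1 clone. Whether the libraries within a group are separate cultures or mice is not stated either, and p-values therefore speak only of library-to-library spread.

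RNA levels are given in CPM, counts divided by the library's size after TMM scaling, which are not divided by transcript length and so are not compared between genes. Totals ran from 11152404 to 19665589 counts a tumour library and from 2628158 to 13066355 a T cell library. All 8 melanoma markers were present in the tumour libraries, summing to 14809 to 15681 CPM in shNC and 18265 to 18862 CPM in shFto. In each of these groups 6 of the 8 CD8 T cell markers in the table were at 0. The others were Lck (4.12 to 5.47 CPM in shNC, 5.93 to 7.14 in shFto), with Cd8b1 in shNC (at most 0.0759) and Cd2 in shFto (at most 0.0532). In the T cell libraries all 8 of those CD8 markers were present (2794 to 3994 CPM), but so were all 8 melanoma markers (977 to 1482 CPM). The melanoma markers beside shNC cells amounted to 7.35% of the shNC tumour level. Beside shFto-1 and shFto-2 they amounted to 7.69% and 7.37% of the shFto tumour level, or 9.48% and 9.09% of the shNC tumour level. Marker sums for B cells, myeloid cells and fibroblasts were at most 11.5 CPM in any library.

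The promoters of these genes were read from RefSeq (GRCm38.p6), in windows of 250 bases before to 50 after the start site. Of the 9 genes, 8 had an entry, and Mettl14 had none. Printed here are the 250 bases upstream of Alkbh5, the eraser that the hairpin did not target, and of Rbm15b, the writer gene with the clearest fall in the tumour cells. They lie at chr11:60537433-60537682 on the plus strand and chr9:106887076-106887325 on the minus strand, and no other RefSeq gene spans either. Capitals mark the GC box bound by SP and KLF factors (GGGCGG or its complement CCGCCC), the CCAAT box and the E-box CACGTG.
Alkbh5: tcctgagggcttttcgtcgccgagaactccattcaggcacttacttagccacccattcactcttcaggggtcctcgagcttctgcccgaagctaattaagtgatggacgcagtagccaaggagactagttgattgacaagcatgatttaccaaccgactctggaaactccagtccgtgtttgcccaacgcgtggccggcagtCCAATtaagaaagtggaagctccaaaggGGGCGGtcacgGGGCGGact
Rbm15b: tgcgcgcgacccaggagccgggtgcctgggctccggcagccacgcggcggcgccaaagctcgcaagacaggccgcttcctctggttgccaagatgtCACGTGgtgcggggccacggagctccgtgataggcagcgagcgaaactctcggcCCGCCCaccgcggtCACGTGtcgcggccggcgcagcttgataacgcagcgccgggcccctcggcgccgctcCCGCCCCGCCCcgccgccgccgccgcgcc
The Alkbh5 stretch holds 2 GC boxes close to the start site behind a CCAAT box, with 14 CpG sites and 54% G and C. The Rbm15b stretch holds 3 GC boxes, of which 2 overlap by a base, and 2 E-boxes, with 40 CpG sites and 76% G and C.

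Over the full windows, both strands searched, a GC box stood in 6 of the 8 promoters (Alkbh5, Wtap, Zc3h13, Rbm15, Rbm15b and Cbll1) and in 35.9% of all 27025 windows. The ETS core CCGGAAG stood in 3 (Mettl3, Zc3h13 and Cbll1; 9.12% of all windows) and CCAAT in 3 (Alkbh5, Wtap and Rbm15; 37.9%). Rbm15b alone of the 8 held the YY1 motif AAGATGGCG (1.49% of all windows) and the E-box (7.24%). None held the cyclic AMP element TGACGTCA (1.88%) or TATAAA (14.2%). All 8 windows lay above the median of 7 CpG sites over all windows, with 17 in Mettl3 to 46 in Rbm15b. Wtap and Rbm15b stood at the 93.3 and 98.4 percentile of all windows, but Mettl3 and Alkbh5 only at the 68.1 and 69.9. A motif match is a description of the letters and not of binding. The Fto start site lies 302 bases from that of Rpgrip1l, which is read from the other strand, so the Fto window also covers much of the Rpgrip1l promoter.

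In the tumour cells, the first comparison set shFto against shNC. Fto, the hairpin's target, fell, and Rbm15b and Rbm15, the adaptor genes of the writer complex, fell by less. The catalytic pair Mettl3 and Mettl14, the scaffold genes Wtap and Zc3h13, Cbll1 and the other eraser Alkbh5 did not pass the test. So 3 of the 9 genes were lower and 0 higher, where 16.9% of all tested genes were lower, 15.9% higher and 32.8% called in either direction. The median log2 fold change of the 9 was -0.09, against -0.003 over all tested genes, and the median size of the change was 0.21 against 0.23. Without Fto, 2 of 8 genes were lower and the median was -0.08.

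Among the erasers, Fto read 31.7, 33.5 and 28.3 CPM in the shFto libraries and 107, 108 and 91.8 CPM in the shNC libraries. Every shFto library lay below every shNC library (log2 fold change -1.72, SE 0.0979, edgeR quasi-likelihood adjusted p = 1.60e-10), which left 0.303 of the control level. Fto is on chromosome 8 (91313367 to 91668433, plus strand, mm10). Alkbh5, on chromosome 11 (60537683 to 60558512, plus strand), read 197, 210 and 235 CPM in shFto and 236, 244 and 204 CPM in shNC. The groups overlapped, and the log2 fold change was -0.09 (95% interval -0.28 to 0.09, edgeR adjusted p = 0.455). That interval leaves room for neither a rise nor a fall of Alkbh5 as large as the fall of Fto.

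The adaptors RBM15 and RBM15B are related RNA-binding proteins that guide the complex to its sites. Rbm15b (chromosome 9, 106880928 to 106887075, minus strand) read 46.9, 41.9 and 56.3 CPM in shFto and 68.3, 66.0 and 66.9 CPM in shNC. All shFto libraries were below all shNC libraries, with a log2 fold change of -0.47 (SE 0.102, edgeR adjusted p = 0.0017). Rbm15 (chromosome 3, 107305511 to 107334460, minus strand) read 83.1, 78.8 and 84.7 CPM in shFto and 104, 102 and 92.9 CPM in shNC. Here too the groups did not overlap, and the log2 fold change was -0.28 (SE 0.0816, edgeR adjusted p = 0.0137). The Rbm15b call held with any library left out (edgeR adjusted p at most 0.0154). The Rbm15 call was lost without shFto replicate 1, shFto replicate 2, shNC replicate 1 or shNC replicate 2, with edgeR adjusted p = 0.0581, 0.0528, 0.0837 and 0.0565, while its log2 fold change stayed between -0.28 and -0.24 in those fits.

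In the catalytic core, Mettl14 (chromosome 3, 123368295 to 123385990) read 48.7, 49.0 and 52.1 CPM in shFto and 57.9, 59.7 and 56.1 CPM in shNC. The groups did not overlap, but the log2 fold change of -0.21 (SE 0.0887) missed the threshold (edgeR adjusted p = 0.0713). The difference passed without shFto replicate 3 (log2 fold change -0.24, edgeR adjusted p = 0.0429). Mettl3 (chromosome 14, 52294841 to 52308741, minus strand) read 24.6, 20.7 and 24.9 CPM in shFto and 24.6, 22.4 and 27.5 CPM in shNC. Its groups overlapped, with a log2 fold change of -0.08 and a 95% interval of -0.33 to 0.18 (edgeR adjusted p = 0.668). Without shFto replicate 2 or shNC replicate 3 the log2 fold change was 0.0005 and 0.007.

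WTAP binds the catalytic pair and ZC3H13 keeps the complex in the nucleus. Wtap (chromosome 17, 12966799 to 12992543, minus strand) read 75.4, 78.1 and 74.2 CPM in shFto and 71.1, 68.3 and 64.8 CPM in shNC. Every shFto library was above every shNC library, yet the difference did not pass (log2 fold change 0.16, SE 0.0828, edgeR adjusted p = 0.156). Cbll1, which encodes a RING-finger protein (chromosome 12, 31484829 to 31500676, minus strand), showed the same order, with 28.5, 26.9 and 26.6 CPM in shFto and 26.2, 23.5 and 19.6 CPM in shNC. Its log2 fold change of 0.24 (SE 0.121) also missed the threshold (edgeR adjusted p = 0.128). Zc3h13 (chromosome 14, 75284306 to 75344433, plus strand) read 116, 115 and 115 CPM in shFto and 121, 130 and 105 CPM in shNC, so its shNC libraries lay on either side of the shFto ones (log2 fold change -0.03, edgeR adjusted p = 0.790). In all, the groups did not overlap for 6 of the 9 genes, and for 45.1% of all tested genes.

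**Figure D1:**
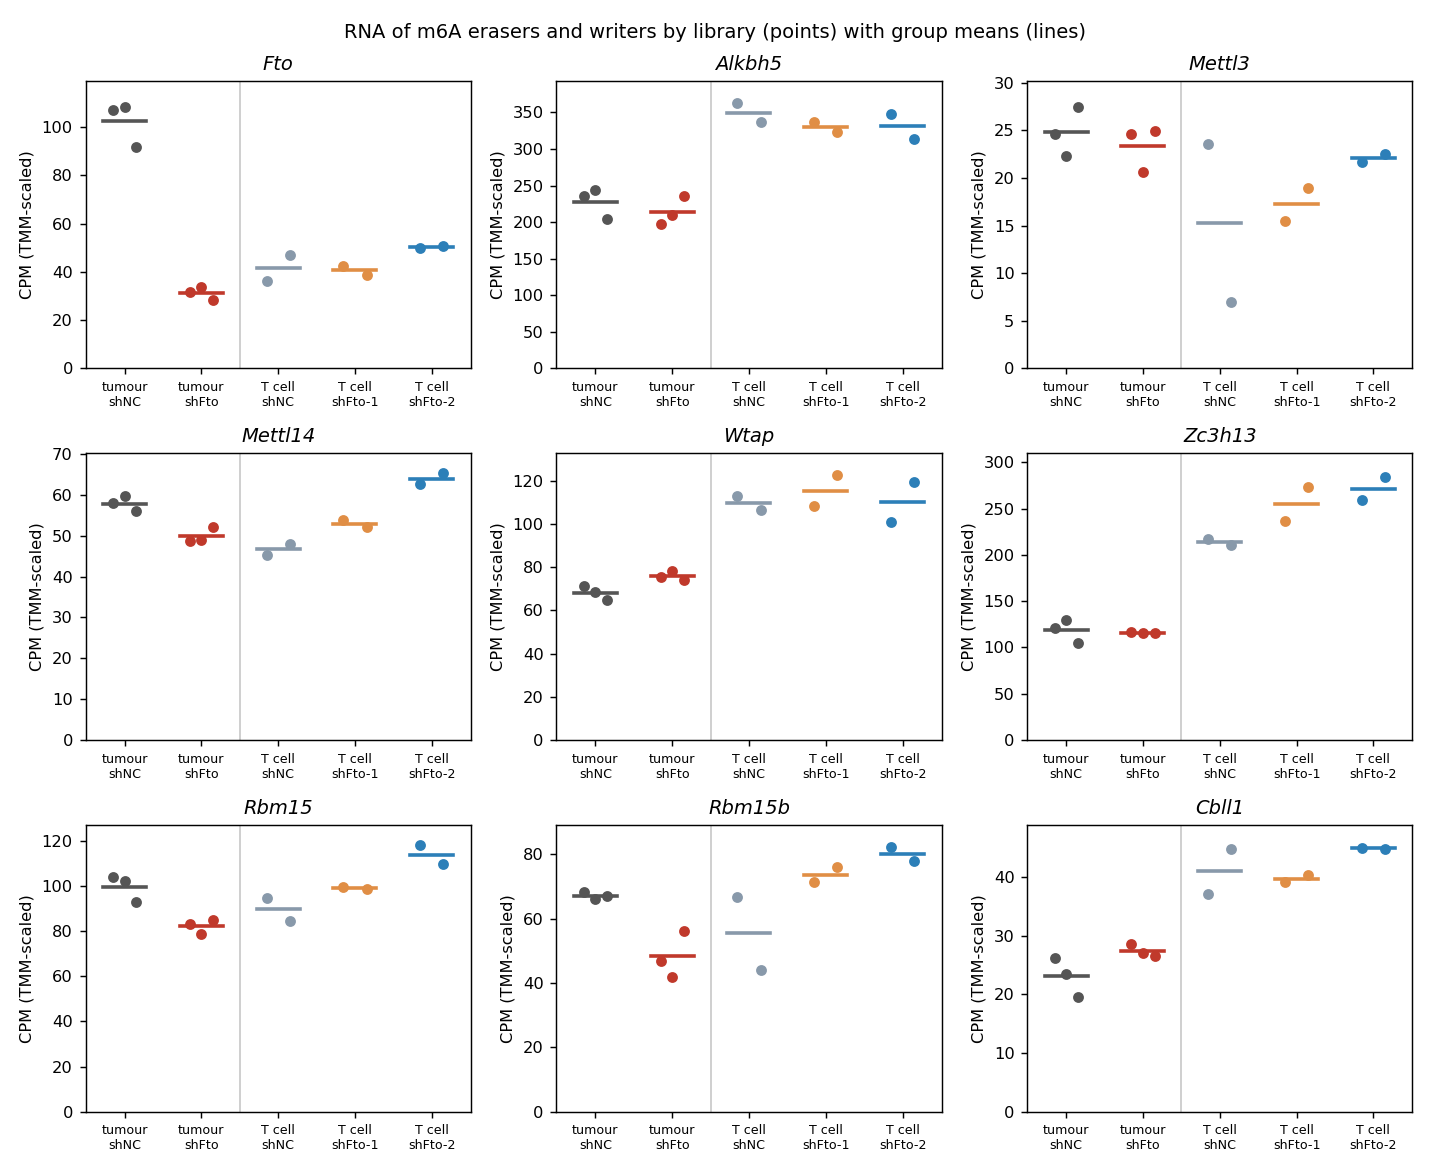
RNA level (CPM, TMM-scaled within each table, axes from 0) of the 9 genes in each library (points) with group means (lines), tumour cells left of the grey line and T cells right of it. In tumour cells Fto falls from 91.8 to 108 CPM in shNC to 28.3 to 33.5 CPM in shFto, while Alkbh5 and Mettl3 overlap between the groups.

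The 3 genes whose pattern over the 6 tumour libraries was most like that of Fto were Sulf2, Mbp and Clvs1. Likeness was the root mean square difference of log2 CPM, each gene centred on its own mean, among 8764 genes with at least 10 CPM on average. The differences were 0.086, 0.135 and 0.144. Sulf2, which encodes a heparan sulfatase, had a log2 fold change of -1.69, Mbp, the myelin basic protein gene, of -1.74, and Clvs1, which encodes a clavesin, of -1.47.

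Of the other methyltransferases of the same chemistry and their partners, 3 of 8 rose and 0 fell in the tumour cells, beside 15.9% of all tested genes higher and 32.8% called in either direction. Mettl4, which methylates U2 small nuclear RNA, rose from 7.08 ± 1.54 to 10.8 ± 0.506 CPM (SD over 3 libraries a group; log2 fold change 0.62, SE 0.179, edgeR adjusted p = 0.0114). Mettl16, which methylates U6 small nuclear RNA and a hairpin of the Mat2a transcript, rose from 56.8 ± 5.34 to 69.2 ± 2.11 CPM (SD over 3 libraries a group; log2 fold change 0.29). Virma, the largest scaffold of the writer complex and listed in the table as 1110037F02Rik, rose from 144 ± 7.78 to 169 ± 13.6 CPM (SD over 3 libraries a group; log2 fold change 0.23, edgeR adjusted p = 0.0385). The calls did not hold in every fit with a library left out: Mettl4 was lost without shNC replicate 2 (edgeR adjusted p = 0.0610), Mettl16 without shFto replicate 1, shNC replicate 2 or shNC replicate 3 (0.0654, 0.0820 and 0.0551), and Virma without shFto replicate 1, shFto replicate 2, shNC replicate 1 or shNC replicate 3 (0.134, 0.153, 0.113 and 0.0958). Zcchc4, a ribosomal RNA methyltransferase gene, had a log2 fold change of 0.27 (edgeR adjusted p = 0.0781, and 0.0341 with library totals). The median of the 8 was 0.24.

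Of the other AlkB dioxygenases, 2 of 7 fell and 0 rose in the tumour cells, where 16.9% of all tested genes fell. Alkbh2, which repairs alkylated bases in DNA, went from 18.2 ± 3.38 to 8.07 ± 0.968 CPM (SD over 3 libraries a group; log2 fold change -1.16, SE 0.165, edgeR adjusted p = 3.18e-05). Alkbh1, which acts on transfer RNA among other substrates, went from 60.9 ± 4.37 to 40.1 ± 3.87 CPM (SD over 3 libraries a group; log2 fold change -0.60, edgeR adjusted p = 0.000152). The other named members, Alkbh4 and Alkbh3, had log2 fold changes of -0.27 and 0.08 with edgeR adjusted p = 0.260 and 0.571. The median of the 7 was -0.05.

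Among the proteins that bind m6A, 13 were listed and 12 tested in tumour cells, of which 2 rose and 3 fell (median -0.17), so 5 of 12 were called against 32.8% of all tested genes. The cytoplasmic readers Ythdf3 and Ythdf1 went opposite ways: Ythdf3 rose from 75.9 ± 3.74 to 115 ± 4.99 CPM (SD over 3 libraries a group; log2 fold change 0.60, edgeR adjusted p = 2.01e-05), and Ythdf1 fell from 119 ± 6.94 to 94.3 ± 4.83 CPM (SD over 3 libraries a group; log2 fold change -0.34, edgeR adjusted p = 0.00341). Igf2bp1, which stabilises its target transcripts, fell (log2 fold change -0.36, edgeR adjusted p = 0.00705), as did Rbmx, a splicing factor gene (-0.23, 0.0211). The Igf2bp1 call was lost without shFto replicate 1 (edgeR adjusted p = 0.0507). The Rbmx call was lost with library totals in place of TMM (edgeR adjusted p = 0.0794), and without shFto replicate 1, shFto replicate 2, shNC replicate 1 or shNC replicate 2 (0.107, 0.0538, 0.0973 and 0.0639).

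In the T cells, which carried no hairpin, 0 of the 9 genes were called beside shFto-1 tumour cells and 4 of 9 beside shFto-2 cells, all of them higher and all of the writer complex. Beside shFto-1 cells 22.2% of all tested genes were called (15.4% higher, 6.84% lower), and beside shFto-2 cells 33.7% (20.4% higher, 13.3% lower). The medians of the 9 log2 fold changes were 0.15 and 0.34, against 0.02 and -0.03 over all tested genes. At an unadjusted p under 0.05, 2 genes passed beside shFto-1 cells (Zc3h13 and Rbm15b). Both contrasts use the same 2 shNC libraries, so they are not independent. The melanoma marker RNA in these libraries was 977 and 1247 CPM beside shNC, 1386 and 1482 beside shFto-1 and 1295 and 1455 beside shFto-2, and the CD8 markers summed to 3863 and 3994, 3341 and 3412, and 2794 and 2964 CPM. The part of these shifts in the results below was not tested, and in such bulk libraries fewer cells of a type and less RNA per cell cannot be told apart.

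Mettl14 read 45.4 and 48.1 CPM beside shNC cells, 53.8 and 52.1 beside shFto-1, and 62.7 and 65.4 beside shFto-2. The 3 groups did not overlap, with log2 fold changes against shNC of 0.18 for shFto-1 (SE 0.121, edgeR adjusted p = 0.363) and 0.45 for shFto-2 (SE 0.120, edgeR adjusted p = 0.0160). The direct test of shFto-2 against shFto-1 gave 0.27 (SE 0.114, edgeR adjusted p = 0.274). The order of the 3 groups therefore rests on the contrast of its ends.

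Rbm15b read 66.8 and 44.0 CPM beside shNC cells, 71.3 and 76.0 beside shFto-1, and 82.2 and 78.0 beside shFto-2. Both shFto groups lay above shNC, whose libraries were far apart, with log2 fold changes of 0.45 (SE 0.175, edgeR adjusted p = 0.0969) and 0.58 (SE 0.174, edgeR adjusted p = 0.0274). Rbm15 read 94.6 and 84.6 CPM beside shNC, 99.4 and 98.7 beside shFto-1, and 118 and 110 beside shFto-2, with log2 fold changes of 0.15 (edgeR adjusted p = 0.382) and 0.35 (SE 0.110, edgeR adjusted p = 0.0310). These are the adaptor genes that were lower in the shFto tumour cells, and the tables were normalized apart, so the difference between the cell types was not tested.

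Zc3h13 read 217 and 210 CPM beside shNC cells, 237 and 274 beside shFto-1, and 259 and 284 beside shFto-2. The shNC libraries were lowest, and the log2 fold changes were 0.25 (SE 0.106, edgeR adjusted p = 0.126) and 0.34 (SE 0.106, edgeR adjusted p = 0.0306). Mettl3 read 23.6 and 6.99 CPM beside shNC (66 and 50 counts), 15.5 and 19.0 beside shFto-1, and 21.7 and 22.5 beside shFto-2. The shNC libraries enclosed all shFto-1 and shFto-2 libraries, and the 95% interval for shFto-2 against shNC ran from -0.26 to 1.63 on the log2 scale. With no filter beyond 1 count its shFto-2 value passed (0.69, edgeR adjusted p = 0.0365). The Mettl3 result rests on its shNC libraries: without shNC replicate 1 the log2 fold changes were 1.26 for shFto-1 and 1.62 for shFto-2 (edgeR adjusted p = 0.0115 and 0.0014), and without shNC replicate 2 they were -0.44 and -0.06 (0.270 and 0.882).

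The erasers and the remaining writer genes were closer together. Fto read 36.1 and 47.1 CPM beside shNC, 42.5 and 38.7 beside shFto-1, and 50.0 and 50.5 beside shFto-2 (log2 fold changes -0.06 and 0.24, edgeR adjusted p = 0.843 and 0.264). Alkbh5 read 362 and 337, 323 and 337, and 348 and 314 CPM in the same order of groups, which overlapped (log2 fold changes -0.08 and -0.08, edgeR adjusted p = 0.632 and 0.609). The Wtap values of 113 and 107, 108 and 123, and 101 and 119 CPM overlapped as well (0.07 and 0.007). The Cbll1 values were 37.1 and 44.7, 39.1 and 40.3, and 44.9 and 44.8 CPM, with log2 fold changes of -0.07 and 0.11.

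Between T cells beside shFto-2 and those beside shFto-1, 0 of the 9 genes were called, where 1.91% of all tested genes were (0.491% higher, 1.42% lower). At an unadjusted p under 0.05 there was 1, Mettl14. The groups did not overlap for 4 of 9 genes in shFto-1 against shNC (60.0% of all tested genes), 6 of 9 in shFto-2 against shNC (67.3%), and 6 of 9 between the shFto lines (46.7%).

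The 4 rises beside shFto-2 cells depended on the scaling and on single libraries. With library totals in place of TMM, which moved the median of all tested genes to -0.20, 0 of the 4 passed, and the log2 fold changes of Mettl14, Zc3h13, Rbm15 and Rbm15b were 0.27, 0.17, 0.18 and 0.41 (edgeR adjusted p = 0.119, 0.304, 0.255 and 0.102). Relative to that shifted median they remained above 0. With library totals, the share of higher genes among all called was 44.8% in place of 60.5% for shFto-2, 45.7% in place of 69.3% for shFto-1, and 60.0% in place of 48.5% in the tumour cells. With the size factors of DESeq2 only Mettl14 passed, and with a filter at 1 CPM Mettl14 and Rbm15b. With the DESeq2 test all 4 passed, and with no filter beyond 1 count those 4 and Mettl3. Of the 9 genes, those called were 0 without shFto-2 replicate 1, Rbm15b without shFto-2 replicate 2, Mettl3, Rbm15 and Rbm15b without shNC replicate 1, and Mettl14 without shNC replicate 2.

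**Figure D2:**
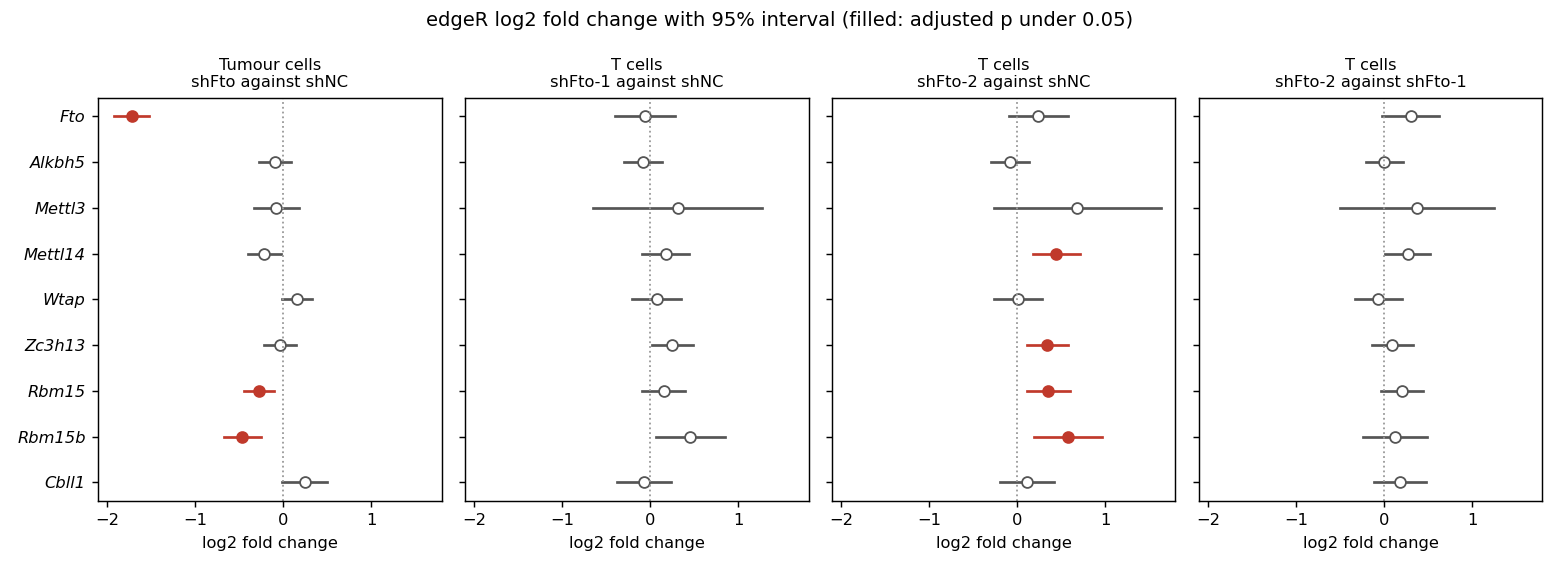
Log2 fold change (x axis) of the 9 genes in the 4 comparisons, with 95% intervals from edgeR; filled red points had an adjusted p under 0.05. In tumour cells the 3 filled points, Fto at -1.72, Rbm15b at -0.47 and Rbm15 at -0.28, lie left of 0, and the 4 filled points for T cells beside shFto-2 cells lie between 0.34 and 0.58.

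The lists of other genes of the system are to be read against the 22.2% and 33.7% of all tested genes called in T cells beside shFto-1 and shFto-2. Of the other methyltransferases, 7 were tested, of which 1 rose beside shFto-1 cells, and 2 rose and 2 fell beside shFto-2 cells. Mettl16 went from 71.6 ± 2.24 CPM beside shNC to 129 ± 4.71 beside shFto-1 and 172 ± 8.90 beside shFto-2 (SD over 2 libraries a group; log2 fold changes 0.85 and 1.27, edgeR adjusted p = 0.000696 and 2.95e-05). Pcif1, which methylates the adenosine next to the cap, had log2 fold changes of -0.41 and -0.87 (edgeR adjusted p = 0.179 and 0.00738), and Virma -0.17 and -0.34 (0.269 and 0.0217). With library totals the shFto-1 value of Virma passed as well (-0.34, edgeR adjusted p = 0.0356). The shFto-2 call for Virma was lost without shFto-1 replicate 1, shFto-2 replicate 2 or shNC replicate 2 (edgeR adjusted p = 0.0625, 0.0852 and 0.0979).

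Of the 7 other AlkB genes, 1 rose and 0 fell beside either line. Alkbh1 went from 61.1 ± 11.7 CPM beside shNC to 95.7 ± 4.12 beside shFto-1 and 100.0 ± 5.94 beside shFto-2 (SD over 2 libraries a group; log2 fold changes 0.62 and 0.68, edgeR adjusted p = 0.0104 and 0.00357). The shFto-1 call was lost without shFto-1 replicate 1 or shNC replicate 1 (edgeR adjusted p = 0.0690 and 0.0539). Of the 13 readers, 3 rose beside shFto-1 and 5 beside shFto-2, and 0 fell, where 15.4% and 20.4% of all tested genes rose. Hnrnpc, a nuclear RNA-binding protein gene, had log2 fold changes of 0.63 and 0.74 (edgeR adjusted p = 0.00235 and 0.000394), Hnrnpa2b1 of 0.20 and 0.53 (0.124 and 0.000961), and the cytoplasmic reader Ythdf2 of 0.42 and 0.55 (0.0101 and 0.00129). The shFto-1 call for Ythdf2 was lost with library totals (edgeR adjusted p = 0.0988) and without shFto-1 replicate 2 (0.0800).

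The transcripts of these genes were themselves read for m6A. The deposited lists held 8479 peaks for shNC, 10811 for shFto and 9850 for Dac51, each called from 1 antibody library and its input. Fold enrichments are the authors' values, place a peak within its own list only, and have no replicate. The genes had 14, 17 and 15 peaks in these lists. Of the 9 genes, 7 had a peak in the shNC list, where 44.2% of all tested tumour genes did, and the same 7 in the shFto list (53.6%) and the Dac51 list (49.9%). A peak in all 3 lists was thus found for 7 of 9 genes and for 40.4% of all tested genes.

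No list held a peak for Mettl3 or Mettl14, the catalytic pair. No peak in any list was also the state of 41.1% of all tested genes, and of 34.8% of the 5069 genes with a mean of 20 to 100 CPM in tumour cells, the range in which both genes lie. Absence from a list is not absence of the mark at this depth.

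Peaks that overlap between lists by at least 1 base were joined into 19 sites. Of these, 10 stood in all 3 lists, 3 in a pair of lists and 6 in a single list. The same split was not made for all peaks of the lists, so no share over all genes stands beside these counts. The 4 sites found in the shFto list alone lay in Alkbh5 (2) and Zc3h13 (2). The shNC list alone had 1, in Wtap, and the Dac51 list alone had 1, also in Wtap. The shFto and Dac51 lists shared 1 site that the shNC list lacked, in Zc3h13, and the shNC and Dac51 lists shared 2 that the shFto list lacked, in Alkbh5 and Cbll1. The shFto list is also the longest, and whether more sites in it are particular to these genes was not tested.

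Fto had 1 peak in each list at the same place, about 96 kb into the gene (91409348 to 91409766 on chromosome 8 in the shNC list). Its fold enrichment was 1.8 in shNC, 2.16 in shFto and 2 in Dac51, at the 7.4, 13 and 10.7 percentile of those lists, whose medians were 5.05, 6.19 and 5.75. Alkbh5 had a peak 629 bases after its start site in the shNC list (fold 1.36) and the Dac51 list (1.44). The shFto list had none there, but had peaks 4016 bases before the end of the gene (1.44) and 450 bases before it (3.71; 60557913 to 60558062 on chromosome 11). All peaks of the erasers stood in the lower part of their own lists.

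The highest enrichments of the 9 genes belonged to Zc3h13 and Rbm15. In Zc3h13 a peak whose blocks end near 75323524 on chromosome 14, about 21 kb before the end of the gene, had folds of 23.7, 31.6 and 39.2 in the shNC, shFto and Dac51 lists, at the 95, 94.4 and 96.2 percentile. A second Zc3h13 site, from 75331239 to 75335958, had folds of 7.71, 13.6 and 9.06. Sites in the shFto list alone lay at 75327688 to 75328016 (fold 1.61) and 75330373 to 75330582 (4.03). Near the end of the gene, a site at 75343620 to 75343769 stood in the shFto list (3.43) and the Dac51 list (2.02).

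Rbm15 carried a peak at its start site (107333079 to 107333289 on chromosome 3 in the shFto and Dac51 lists) with folds of 3.89, 9.14 and 8.51. Further in, its longest site had highest folds of 28.3, 29.5 and 33.8, at the 96.7, 93.4 and 94.7 percentile. Rbm15b had 1 site, which covered 2090 bases in the shNC list from 106884224 to 106886313 on chromosome 9. The shFto and Dac51 lists split it into 2 peaks. Its highest folds were 13.7, 23.4 and 22.9, at the 83.5, 89.7 and 89.0 percentile. Rbm15b and Rbm15, which were lower in shFto RNA, thus carried peaks in all 3 lists. So did Fto, and so did Alkbh5, Wtap, Zc3h13 and Cbll1, whose tumour RNA did not pass the test.

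Wtap had 5 sites, the most with Zc3h13. The site from 12974612 to 12974941 on chromosome 17 was called over the same bases in every list, with folds of 11.7, 23.8 and 25.7. A site within 1 kb of the end of the gene had folds of 4.45, 7.01 and 9.17. In Cbll1 the main site, 31487191 to 31487789 on chromosome 12 in the shNC list, had folds of 6.78, 17.1 and 8.54, at the 61.6, 83.0 and 63.2 percentile. Beside it lay a weaker site that the shNC (2.15) and Dac51 (2.26) lists held and the shFto list did not. Which exons or untranslated regions these peaks lie in was not analysed here.

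**Figure D3:**
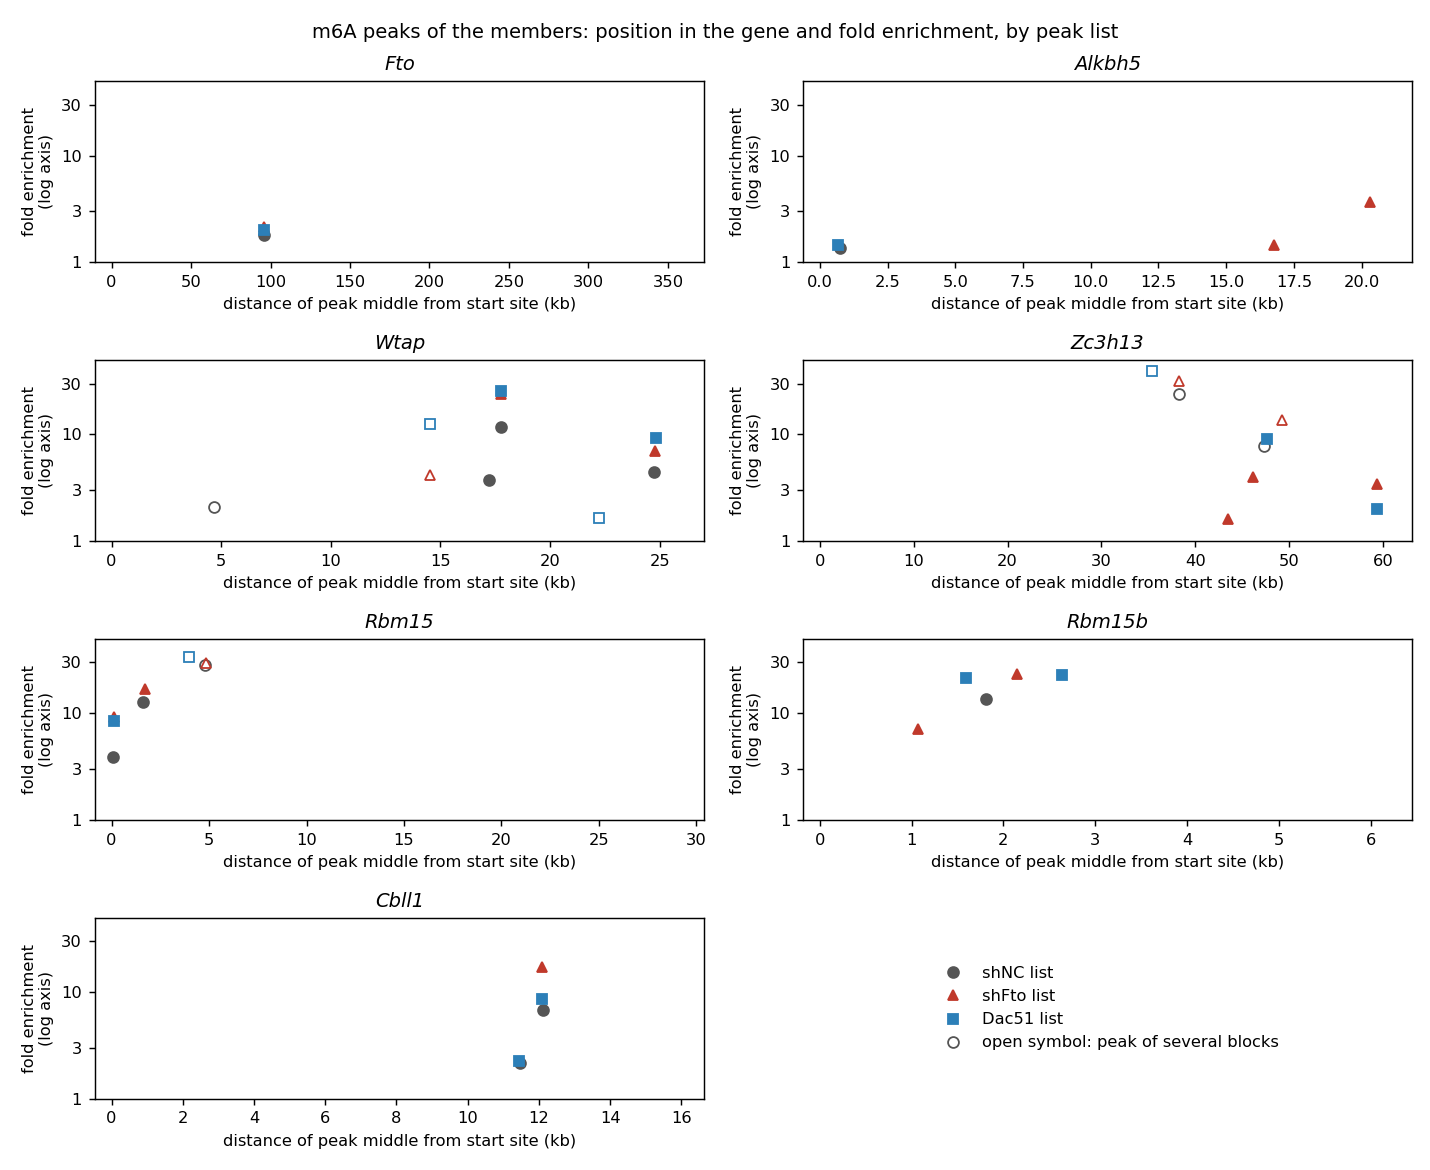
m6A peaks of the 7 genes that have any: distance of the peak middle from the start site (x axis, kb) against the fold enrichment the authors deposited (y axis, log scale), with 1 symbol for each list; open symbols are peaks of several blocks, whose middle can fall between blocks. The highest folds are those of Zc3h13, up to 39.2, and Rbm15, up to 33.8, and Fto lies near 2 in all 3 lists.

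ATAC-seq asked whether the chromatin at these genes differed. For this each library was held to its 67427 peaks of highest score, the number in the smallest list. All 9 genes had a promoter peak, within 1 kb of a start site, in 6 of 6 libraries. So did 92.8% of the 8949 tested tumour genes with a start site in the RefSeq table. For Mettl14, whose strand was not known here, both ends of the gene were searched and the peak lay at the upper end. Fold enrichment at the Fto promoter was 26.9 to 29.9 in shFto and 28 to 29.5 in shNC libraries. At Alkbh5 it was 10.7 to 11.6 and 12.4 to 13.7, at Mettl3 17.1 to 17.8 and 17.7 to 19.0, and at Mettl14 28.2 to 29.2 and 30.4 to 33.5. The Rbm15b promoter had the lowest, with 4.58 to 5.75 in shFto and 4.90 to 5.97 in shNC, and that of Rbm15 had 11.9 to 13.1 and 13 to 13.5. These folds were scaled by the peak caller within each library, so differences between libraries were not tested.

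Over the genes and 1 kb on either side there were 40 separate peak regions, of which 24 were found in all 6 libraries, 60% against 56.4% of all 88081 regions. That share pools unlike genes. Fto, which spans 355 kb, held 22 of the 40, of which 9 were in all 6 libraries. For Zc3h13 it was 2 of 3 and for Rbm15b 1 of 3. Every region of Alkbh5, Mettl3, Mettl14, Wtap, Rbm15 and Cbll1 was in all 6. Only 1 region was in all 3 shNC and no shFto library, where 1.66% of all regions were. It lies inside Fto, 82.4 kb from the start site (91395726 to 91396046 on chromosome 8), with folds of 8.17, 8.24 and 11.8 in the shNC libraries. Only 1 was in all 3 shFto and no shNC library, where 0.879% of all regions were. It lies inside Zc3h13, 46.5 kb from the start site (75330675 to 75330960 on chromosome 14), with folds of 7.08, 5.71 and 4.95.

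That Zc3h13 region starts 92 bases after the end of an m6A site that stood in the shFto list alone (75330373 to 75330582). It also ends 278 bases before the m6A site from 75331239 to 75335958, which stood in all 3 lists. Zc3h13 had 3, 3 and 3 peaks in the shFto and 2, 2 and 2 in the shNC libraries (two-sided exact permutation p = 0.1, the smallest that 3 against 3 allows). Its RNA did not pass the test. Fto had 12, 12 and 14 peaks in shFto and 12, 11 and 13 in shNC (two-sided exact permutation p = 0.7), so its peak counts overlapped between the groups. Of the remaining genes, Alkbh5, Mettl3, Mettl14, Wtap, Rbm15 and Cbll1 had the same number of peaks in every library, from 1 for Wtap, Rbm15 and Cbll1 to 4 for Alkbh5. The Fto region was in all 3 shNC and no shFto library also with all deposited peaks and at a -log10 q of at least 10. The Zc3h13 region held with all deposited peaks but not at a -log10 q of at least 10, where shFto-only regions were 0. The number of shNC-only regions was 3 with all peaks and 2 at that q. Those added with all peaks lay inside Fto, 68.4 and 302 kb from the start site. The region added at that q lay in Rbm15b (106880941 to 106881231 on chromosome 9), with folds of 8.82, 10.6 and 8.04 in the shNC libraries. With equal peak numbers that Rbm15b region was also in shFto replicates 1 and 2 (folds 5.51 and 6.36).

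**Figure D4:**
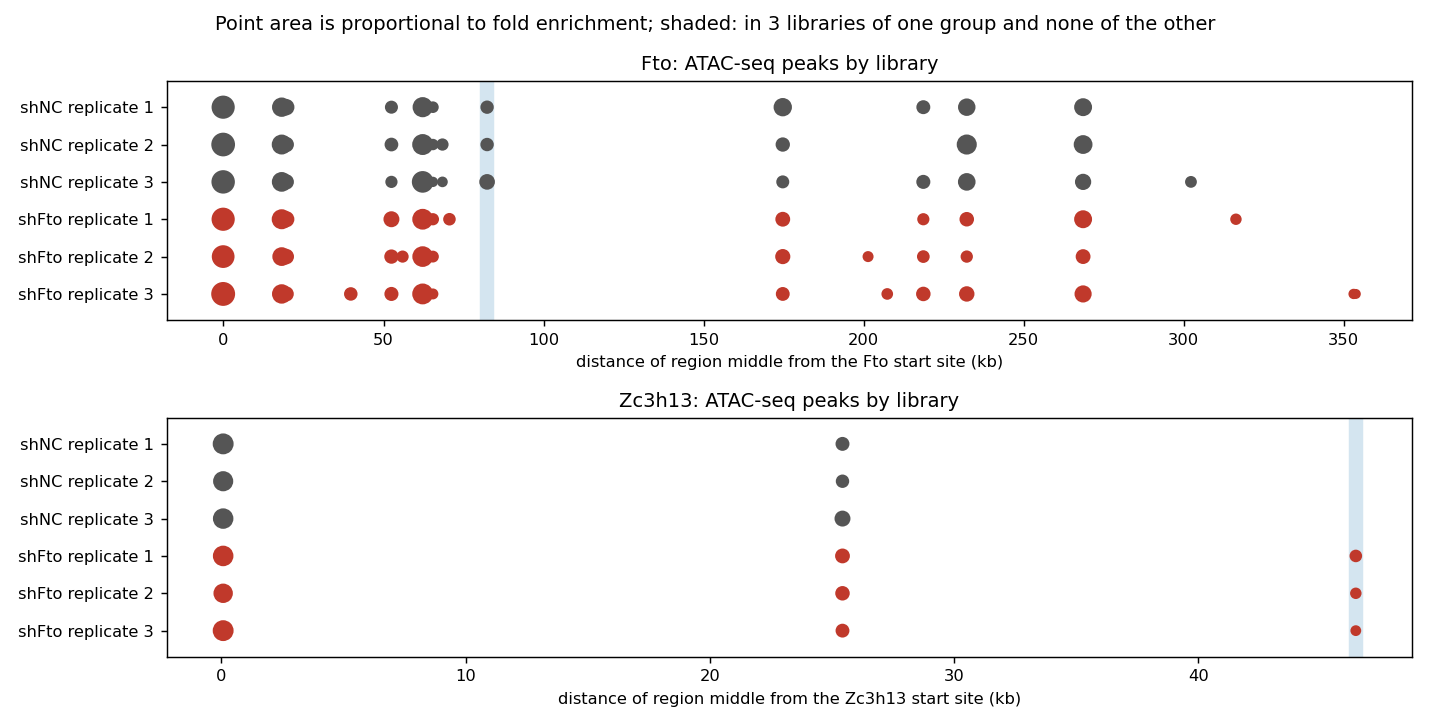
ATAC-seq peaks of Fto and Zc3h13 in each library (rows) by distance from the start site (x axis, kb); point area is proportional to the deposited fold enrichment, and shading marks regions in all 3 libraries of a group and none of the other. The shaded Fto region lies at 82.4 kb in the shNC libraries and the shaded Zc3h13 region at 46.5 kb in the shFto libraries.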

How the data were processed

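RNA counts per gene symbol were deposited by the authors, unnormalized per the file headers. For ATAC-seq the authors deposited peaks of each library with a fold enrichment ratio, −log10 p and q values and a score. Their deposited m6A lists, exomePeak output per the labels, give a fold enrichment ratio, p-value and log10 values. Named in the submitters' processing notes are STAR 2.7.0f, Bowtie2 2.3.5, MACS2 2.1.3, Trim Galore 0.6.0, Picard and deepTools, and the build mm10. The counting tool, its use of strand and the peak thresholds are not given in the sources used here.

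Samples were grouped by label. The 9 genes and all lists were chosen with earlier results of these data known. Besides the 9, the rule named from each list up to 4 genes by adjusted p in tumour cells and up to 3 in T cells. Counts were fitted with edgeR 4.0.16 (quasi-likelihood test, TMM, filterByExpr) in R 4.3.3, tumour and T cell tables apart and the 6 T cell libraries in a single fit, with p-values adjusted over all tested genes (Benjamini-Hochberg, threshold 0.05). The fit was tested on simulated counts. ATAC-seq peaks were merged at an overlap of 1 bp. Peak folds, having no replicates or no common scale, were described only. Alternatives were library totals, DESeq2 1.42.0 (its size factors and its Wald test), other filters, a replicate block, other peak thresholds and leaving out each library. Python 3.11.15, pandas 2.3.3, SciPy 1.17.1 and Matplotlib 3.10.9 were used. Sequences and gene spans are from RefSeq. The m6A input libraries were not analysed on their own.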

Additional observations from a re-analysis of the deposited data

How the results depend on the processing

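Of 432 values of the 9 genes under other settings, 372 kept their direction and side of the threshold, 26 kept the direction but lost the call, 6 gained it and 28 changed sign; none of the 28 was a called value. The causes were not tested. Values in brackets are log2 fold changes.

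In tumour cells, leaving out a library gave 2468 (without shFto replicate 1) to 4423 calls; Mettl3 ran from -0.143 to 0.00740 and Zc3h13 from -0.112 to 0.0420, and Zc3h13 turned with library totals (0.0202). Beside shFto-1, leaving out a library gave 1587 (without shFto-1 replicate 1) to 2878 calls and 0 to 2 of the 9 genes (2 without shNC replicate 1); 1 gene (Rbm15b) passed with no filter. Over those fits Fto ran from -0.232 to 0.213, Mettl3 from -0.436 to 1.26, Wtap from -0.0353 to 0.185, Cbll1 from -0.199 to 0.128 and the listed gene Idh1 from -0.412 to 0.0257; with library totals Wtap (-0.0941) and Rbm15 (-0.0134) turned. Beside shFto-2, leaving out a library gave 3298 to 4202 calls and 0 to 4 of the 9 genes, with Mettl3 from -0.0606 to 1.62, Wtap from -0.140 to 0.0869 and Cbll1 from -0.0336 to 0.305. The 9 genes had 0 calls with library totals, 1 with DESeq2 size factors, 2 at 1 CPM, 4 with the DESeq2 test and 5 with no filter beyond 1 count. Wtap turned with library totals (-0.166), DESeq2 size factors (-0.0489), the DESeq2 test (-0.0487) and the 1 CPM filter (-0.0274), and Cbll1 with library totals (-0.0668).

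Between the shFto lines the 245 calls became 147 with DESeq2 size factors, 1061 with the DESeq2 test, 838 with no filter, 446 with a replicate block, and with a library left out 1 (without shFto-1 replicate 1), 68 (without shFto-2 replicate 2), 380 (without shNC replicate 1) and up to 507 (without shFto-2 replicate 1); the 9 genes stayed at 0 calls in the fits with a library left out. There Alkbh5 ran from -0.0965 to 0.0643, Wtap from -0.197 to 0.0297 and Zc3h13 from -0.00649 to 0.185, and Alkbh5 turned with library totals (-0.00302) and the 1 CPM filter (-0.0124).

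Replicate numbers were not taken to pair the libraries, since no label says so. Deviations of same-numbered libraries correlated at 0.014, 0.037 and -0.017 in tumour cells. In T cells they correlated at 0.37 between the shFto lines and at -0.32 and -0.21 against shNC. With 2 libraries a group, crossing the numbers of a group turns the sign, so the T cell values cannot decide whether the libraries are paired. The replicate block changed no call of the 9 genes. Of the listed genes it brought the shFto-1 values of Pcif1 (-0.449, edgeR adjusted p = 0.0444) and Fh1 (0.553, 0.0433) past the threshold and lost the shFto-2 call of Aktip (1.71, 0.0600). It gave 3736, 2903 and 4300 calls in the other comparisons. Chosen after seeing the data, a block with the shNC numbers crossed gave 3081, 4523 and 460 calls in the T cell comparisons.

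The 63 values of listed genes were refitted 756 times, of which 706 kept direction and call. At a fold of at least 2, 5 of the 9 genes kept m6A peaks in all 3 lists; an overlap of at least 0.5 of both peaks gave 26 sites, 8 of them in all lists. ATAC-seq regions in shNC alone were 3 with all peaks and 2 at a -log10 q of at least 10, where shFto-only regions were 0. Depth limits Mettl3 most, at 50 counts in a T cell library.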

Other observations

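RNA of Mettl16 and of Mat2a, whose transcript METTL16 methylates, was higher in T cells beside either shFto line. A link between these rises was not tested. Mat2a encodes the enzyme that makes the methyl donor S-adenosylmethionine. Mat2a went from 236 ± 30.8 CPM beside shNC to 404 ± 25 beside shFto-1 and 441 ± 1.46 beside shFto-2 (SD over 2 libraries a group; log2 fold changes 0.77 and 0.89, edgeR adjusted p = 0.00122 and 0.000184). Of the 7 genes for the methyl donor and for removal of its product, 4 rose and 0 fell beside shFto-1, and 5 rose and 1 fell beside shFto-2, where 22.2% and 33.7% of all tested genes were called. Among them were Mtrr, a methionine synthase reductase gene (1.02 and 1.25, edgeR adjusted p = 0.00191 and 0.000238), and Ahcy, the adenosylhomocysteinase gene (0.65 and 0.81, edgeR adjusted p = 0.00701 and 0.000966). The shFto-1 call for Ahcy was lost without shFto-1 replicate 1 (edgeR adjusted p = 0.0570). In the tumour cells 2 of the 7 rose and 1 fell, beside 32.8% of all tested genes called. Ahcy fell from 163 ± 7.14 to 104 ± 22.0 CPM (SD over 3 libraries a group; log2 fold change -0.65, edgeR adjusted p = 0.000162), Mtrr rose (0.48, edgeR adjusted p = 0.00232), and Mat2a did not pass (0.10, edgeR adjusted p = 0.387). Ahcyl2 rose (0.28, edgeR adjusted p = 0.0208), a call lost without shFto replicate 1, shFto replicate 2 or shNC replicate 3 (0.0886, 0.0520 and 0.0868).

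FTO and ALKBH5 use 2-oxoglutarate. Of 6 genes that make it, consume it or act later in the citric acid cycle, 1 rose and 1 fell in the tumour cells. Of all tested genes 15.9% rose and 16.9% fell there, 32.8% in either direction. Idh2, which makes 2-oxoglutarate in mitochondria, fell from 557 ± 43.5 to 422 ± 34.2 CPM (SD over 3 libraries a group, log2 fold change -0.40, edgeR adjusted p = 0.00171). Ogdh, which consumes it, rose (0.33, edgeR adjusted p = 0.00324). Idh1 and Fh1 did not pass (0.15 and -0.09, edgeR adjusted p = 0.251 and 0.436), and Sdha and Sdhb were at -0.008 and -0.002. Without shFto replicate 3 Idh1 passed as higher (0.25, edgeR adjusted p = 0.0278). The amount of 2-oxoglutarate itself was not measured. In T cells 0 of the 6 were called beside shFto-1, and 1 rose and 2 fell beside shFto-2. Of all tested genes 22.2% and 33.7% were called there. Idh2 had log2 fold changes of -0.27 beside shFto-1 and -0.84 beside shFto-2 (edgeR adjusted p = 0.143 and 0.000512). The first passed with library totals (-0.44, edgeR adjusted p = 0.0279) and with the DESeq2 test (-0.35, DESeq2 adjusted p = 0.0471). Between the lines Idh2 was at -0.57 (edgeR adjusted p = 0.0499). Beside shFto-2 Idh1 fell (-0.95, edgeR adjusted p = 0.0231) and Fh1 rose (0.55, edgeR adjusted p = 0.0352). The Idh1 call was lost without shFto-2 replicate 2 or shNC replicate 2, with log2 fold changes of -0.83 and -0.69. The Fh1 call was lost with library totals (0.37, edgeR adjusted p = 0.142). It was also lost without shFto-1 replicate 2, shFto-2 replicate 1, shFto-2 replicate 2 or shNC replicate 1, with log2 fold changes of 0.52, 0.60, 0.44 and 0.32. On the chromosome, 6 of 7 listed neighbours of Fto were tested in tumour cells. Of these, 2 rose and 0 fell, beside 32.8% of all tested genes called in either direction (15.9% higher). Chd9, a chromatin remodeller gene, rose from 82.2 ± 6.91 to 114 ± 9.28 CPM (SD over 3 libraries a group; log2 fold change 0.47, edgeR adjusted p = 0.000463) and Rbl2, a retinoblastoma family gene, from 72.6 ± 0.997 to 92.6 ± 6.46 CPM (SD over 3 libraries a group; 0.35, edgeR adjusted p = 0.00303). Rpgrip1l, which shares the promoter region with Fto, did not pass (0.16, edgeR adjusted p = 0.326). In T cells, of 6 neighbours tested, 0 rose and 1 fell beside shFto-1, and 1 rose and 1 fell beside shFto-2. Of all tested genes 22.2% and 33.7% were called there. Aktip rose beside shFto-2 from 2.87 to 8.76 CPM (1.68, edgeR adjusted p = 0.0441). The call was lost with library totals (edgeR adjusted p = 0.0675), DESeq2 size factors (0.0528), no filter beyond 1 count (0.0610) and a replicate block (0.0600). It was also lost without shFto-2 replicate 1, shFto-2 replicate 2 or shNC replicate 2, with log2 fold changes of 1.84, 1.37 and 1.18. Rbl2 fell beside both lines, with log2 fold changes of -0.71 and -1.5 (edgeR adjusted p = 0.00693 and 6.53e-05). The shFto-1 call was lost without shFto-1 replicate 1 (edgeR adjusted p = 0.0611).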
